A study of Mus musculus with 12 samples.

Results

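Regulatory T cells (Treg) of NOD mice were compared with Treg of B6.H2g7 mice across all genes of an expression array. The comparison used the 3 NOD Treg and 3 B6.H2g7 Treg arrays, chosen by their titles, 6 of the 12 arrays of the series. The other 6 arrays held CD25-negative conventional T cells (Tconv) of the same strains, 3 arrays per strain, and shared in the estimate of the spread. NOD is an inbred strain that develops autoimmune diabetes. B6.H2g7, written B6g7 here, carries the MHC haplotype of NOD, H2g7 with the class II molecule Ag7, on a B6 background, so both strains share that haplotype and differ over the rest of the genome. All mice were 6 weeks old, no treatment is named, and each array took spleen RNA pooled from 3 mice. Treg were enriched on magnetic columns by CD25 and then sorted in 2 passes as CD4+CD25hi cells free of CD8a, CD11b, CD69 and B220; their RNA was amplified in 2 rounds. On restaining, 94%, 96% and 96% of sorted cells were Foxp3+ in the B6g7 Treg samples and 89%, 95% and 95% in the NOD Treg samples, by the labels. The replicates are described in the series text as independent, and the p-values measure the spread between such pools of mice, not between single mice.

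Treg restrain other immune cells and depend on the transcription factor Foxp3, on signals of the IL-2 receptor and on their T cell receptor. They act through surface molecules such as CTLA-4, through uptake of IL-2, and through enzymes that turn extracellular ATP into adenosine. Loss of Treg function leads to autoimmunity, and the question set for the series was how the Treg programme of NOD compares with that of a diabetes-resistant strain of the same MHC.

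An array reads each gene with 1 or more probe sets, each made of its own short probes, and a base that differs between strains within a probe can alter its binding. No probe sequence or NOD genome was used here, so whether such bases lie under a probe was not tested. For that reason values of other probe sets are given beside the main value for the genes that the results turn on. The main value comes from the probe set with the highest mean over the 12 arrays. The other probe sets of a gene therefore have lower means, and whether each detects its gene in these cells was not tested. Levels are log2 of the deposited intensity, differences are NOD minus B6g7 on that log2 scale with the standard error (SE) of the limma fit, and a gene was called at a Benjamini-Hochberg adjusted p under 0.05. A level is termed dim where a group mean lay under 5.28 (the 25th percentile over probe sets), and no fold is given for such genes. That line is a percentile and not a measured background. Foxp3 in Tconv lay above it, with means of 5.68 in B6g7 and 5.91 in NOD. How far background limits a fold where a strain lay near such levels was not tested.

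The arrays labelled Treg held the Treg programme in both strains. Foxp3 measured 10.69, 11.22 and 11.08 in the B6g7 Treg arrays and 10.67, 11.22 and 11.26 in the NOD Treg arrays, against means of 5.68 ± 0.14 (SD, n = 3) and 5.91 ± 0.33 in Tconv. The arrays of the strains overlapped, and the difference in Treg was 0.05 ± 0.20 (adjusted p = 0.986). The mean over 8 Treg markers (Foxp3, Il2ra, Ikzf2, Ctla4, Tnfrsf18, Nrp1, Ikzf4, Gpr83) ran from 11.34 to 11.60 in B6g7 Treg and from 11.37 to 11.56 in NOD Treg. By limma 0 of these 8 were called between the strains, and 1, Gpr83 (0.34), had an unadjusted p under 0.05. Median intensities of the 6 Treg arrays lay between 83.9 and 87.3. The difference between the 3′ and 5′ actin control probes, a sign of RNA or amplification length, was lowest in the arrays numbered replicate 1 of each strain (2.66 in B6g7 and 3.29 in NOD, against 4.26 to 4.70 in the other 4), so it moved with the replicate number and not with the strain. With 3 arrays a group, precision is limited by their number.

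Between the strains, 606 of 18193 genes were called in Treg (3.33%), 335 higher in NOD (1.84%) and 271 lower (1.49%). The 3 arrays of each strain did not overlap in any of the 606, while 14% of all genes had arrays that did not overlap. The median difference was 0.78 among the higher genes and -0.82 among the lower genes, against 0.00 over all genes. At least 1 log2 unit separated the strains in 107 higher and 105 lower genes, at least 3 in 6 higher and 12 lower genes. Counted by probe set, 1468 of 45037 were called (3.26%), 720 higher and 748 lower, and 300 of these are unnamed in the platform annotation. With the spread estimated from the 6 Treg arrays alone, 976 probe sets and 385 genes passed, 377 of them among the 606. Array weights gave 2361 probe sets and 960 genes, and a covariate for actin gave 2340 and 941. No exact permutation test was run, since 3 arrays against 3 allow no p below 0.1.

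**Figure D1:**
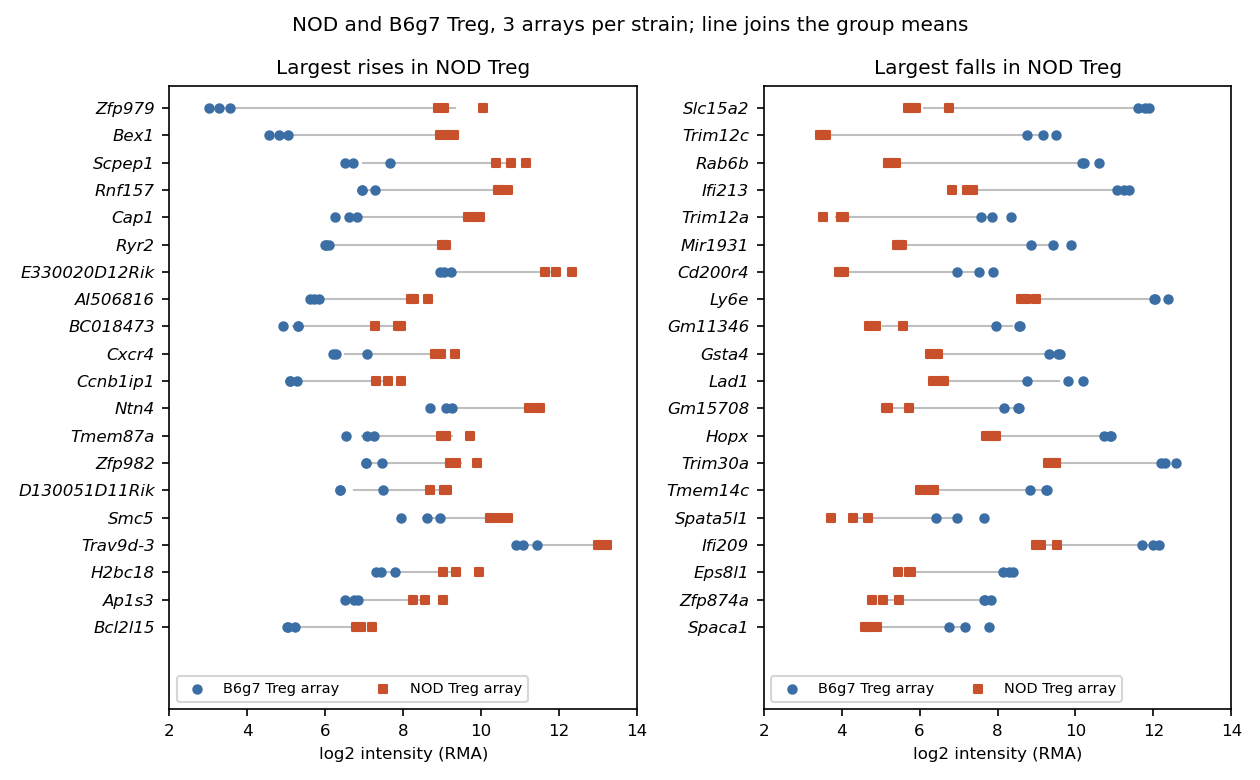
Log2 intensity (horizontal axis) of the 20 genes with the largest rise and the 20 with the largest fall in NOD Treg, by gene. Each point is 1 array (circles B6g7, squares NOD, 3 per strain) and the line joins the group means; the arrays of the strains do not overlap in any row, and Zfp979 (6.05) and Slc15a2 (-5.63) have the widest gaps.

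The largest fall belonged to Slc15a2, which encodes a transporter of small peptides. It measured 11.77, 11.60 and 11.88 in B6g7 Treg and 5.90, 6.76 and 5.71 in NOD Treg, a difference of -5.63 ± 0.21 (adjusted p = 1.23e-08), or 49.5-fold. Its other probe sets had means of 6.82 and 6.07 in B6g7 Treg and 6.92 and 6.08 in NOD Treg. Their differences of 0.10 and 0.01 were not called, so only 1 of 3 probe sets of this gene separated the strains. Rab6b, a Rab GTPase of vesicle transport, behaved otherwise. Its main probe set measured 10.21, 10.59 and 10.17 in B6g7 and 5.19, 5.18 and 5.40 in NOD (-5.07 ± 0.12, adjusted p = 3.24e-10, dim in NOD), and all 4 of its probe sets were lower, at -5.07, -3.65, -0.80 and -0.53. Ly6e, a surface protein gene induced by interferon, measured 12.02, 12.03 and 12.37 in B6g7 against a mean of 8.77 ± 0.21 (SD, n = 3) in NOD, whose highest array lay far under the lowest of B6g7 (-3.37 ± 0.13, adjusted p = 1.52e-08, 10.3-fold), and its other probe set was lower as well (-1.54). Pdk1, a pyruvate dehydrogenase kinase gene, was lower by all 4 of its probe sets, from -1.53 to -2.88. Its main probe set gave -2.27 ± 0.21 (adjusted p = 3.56e-05). Among the other large falls were Mir1931 (-3.91), Cd200r4, a relative of the CD200 receptor (-3.46, dim in NOD), and Tmem14c (-2.91), each read by 1 probe set.

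The largest rise was that of Zfp979, a zinc finger gene, which measured 3.01, 3.56 and 3.27 in B6g7 Treg and 10.05, 8.89 and 9.06 in NOD Treg (6.05 ± 0.25, adjusted p = 2.74e-08). B6g7 was dim here, so the size of the change is uncertain. Bex1 rose from a dim level as well (4.30 ± 0.21, adjusted p = 9.98e-08). Rnf157, a ubiquitin ligase gene, measured 6.94, 7.26 and 6.95 in B6g7 and 10.44, 10.70 and 10.47 in NOD (3.49 ± 0.18, adjusted p = 1.62e-07, 11.2-fold); 2 of its 5 probe sets were higher. Scpep1, a serine carboxypeptidase gene (3.80 ± 0.33, 13.9-fold), and Cap1, a regulator of actin filaments (3.28 ± 0.13, 9.71-fold), were each higher by 1 probe set, with their other probe set at 0.21 and 0.22 and not called. Trav9d-3, a variable segment of the T cell receptor alpha chain, was higher by 3 of its 5 probe sets (1.95 ± 0.14, adjusted p = 2.77e-06, main probe set). Gnb4, a G protein beta subunit gene, was higher by all 3 (1.76 ± 0.14, adjusted p = 9.2e-06).

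**Figure D2:**
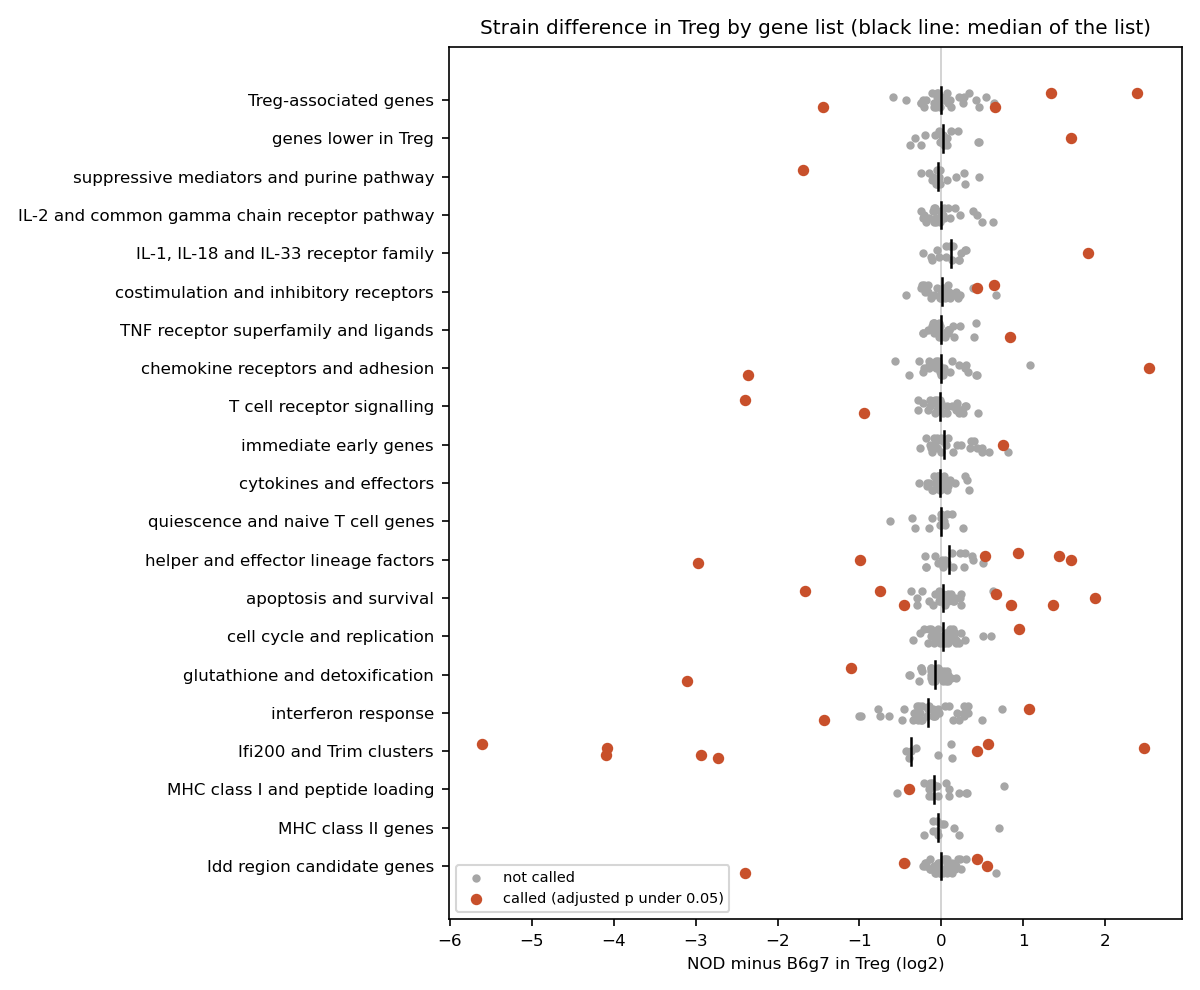
NOD minus B6g7 difference in Treg (log2, horizontal axis) of the measured members of 21 gene lists. Each point is 1 gene (large points called at adjusted p under 0.05) and the black line marks the median of the list; medians lie between -0.09 and 0.12 except for the Ifi200 and Trim clusters (-0.37) and the interferon response (-0.16).

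Most genes that mark or serve Treg did not pass. Of 38 measured Treg-associated genes, 3 were higher in NOD and 1 was lower (10.5% called, against 3.33% of all genes), with a median of -0.01. The 4 were Ntn4, Rgs16, S100a4 and Capg. Arrays of the strains did not overlap in 12 of the 38, against 14% of all genes. By limma 11 of the 38 had an unadjusted p under 0.05. With the replicate number as a block, 7 were called, the added ones being Gata1 (-0.58), Itgae (0.42) and Entpd1 (0.46). Ntn4, which encodes the secreted guidance protein netrin 4, measured 9.26, 9.10 and 8.68 in B6g7 Treg and 11.52, 11.23 and 11.47 in NOD Treg (2.39 ± 0.15, adjusted p = 7.56e-07, 5.26-fold), and its dimmer probe set lay at 0.36 (adjusted p = 0.174). Rgs16, which shortens G protein signals, was higher by 2 of its 3 probe sets (1.34 ± 0.15, adjusted p = 0.000163). S100a4, a calcium-binding protein gene, was higher by 0.66 ± 0.15 (adjusted p = 0.0295) and lost the call without NOD Treg replicate 3 (adjusted p = 0.12). Capg, an actin capping protein gene, measured 8.20, 8.25 and 8.01 in B6g7 and 6.70, 6.74 and 6.69 in NOD (-1.44 ± 0.09, adjusted p = 7.29e-07, 2.72-fold), while its other probe set was at 0.12 (adjusted p = 0.972).

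The defining Treg receptors were not called by their main probe sets. Il2ra, the high-affinity chain of the IL-2 receptor, measured 10.94, 11.10 and 11.03 in B6g7 and 10.83, 10.69 and 10.91 in NOD (-0.21 ± 0.10, adjusted p = 0.505), so that the NOD arrays lay just under those of B6g7; its other probe set gave 0.02. Ctla4 ranged from 10.74 to 12.09 in B6g7 and from 10.13 to 11.92 in NOD (-0.43 ± 0.50, adjusted p = 0.927); in both strains the array numbered replicate 1 was the highest, and that spread leaves its difference poorly measured. Ikzf2, which encodes Helios, gave 0.02 ± 0.19 and Icos 0.09 ± 0.11. A second probe set of Icos was lower in NOD (-1.95, adjusted p = 2.68e-06) and the third was not called (0.28). Il2rb gave -0.25 ± 0.15 (adjusted p = 0.686), with its dimmer probe set called at -0.38 (adjusted p = 0.0425).

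IL-2 and related cytokines sustain Treg. Among 27 measured genes of the IL-2 and common gamma chain pathway, limma called 0 (0 with the replicate block, 3 at an unadjusted p under 0.05), where 3.33% of all genes were called, and the median was -0.01. Without the 4 arrays numbered replicate 1, 1 was called. Il2 (0.03 ± 0.12), Il21 (-0.02 ± 0.23) and Il7r (0.00 ± 0.11) were all near 0. Bcl2 (0.63 ± 0.35), a survival gene, and Il4ra (0.50 ± 0.22) had the highest values and did not pass. Of 27 cytokine and effector genes 0 were called as well (0 with the block, 1 at an unadjusted p under 0.05).

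In the IL-1, IL-18 and IL-33 receptor family, 1 of 16 genes was called (6.25% against 3.33% of all genes), and the list's median was 0.12. That gene was Il18r1, the ligand-binding chain of the IL-18 receptor, which measured 9.41, 9.52 and 9.69 in B6g7 Treg and 11.40, 11.17 and 11.43 in NOD Treg. Every NOD array lay above every B6g7 array, and the difference was 1.80 ± 0.11 (adjusted p = 5.1e-07, 3.47-fold). In Tconv the strain difference was 0.10 ± 0.11 (adjusted p = 0.847), and the difference between both contrasts, tested directly, was 1.70 ± 0.15 (adjusted p = 0.000225). Il18rap, the partner chain, gave 0.30 in Treg and was not called (adjusted p = 0.14), and Il1rl2, Il1r1 and Il33 gave 0.29, 0.21 and 0.11.

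Among the suppressive mediators and genes of the purine pathway, 1 of 18 was called (5.56% against 3.33% of all genes), with a median of -0.04, and 2 with the replicate block. P2rx7, a cation channel opened by extracellular ATP, measured 9.80, 9.51 and 9.95 in B6g7 Treg and 8.06, 8.08 and 8.06 in NOD Treg (-1.69 ± 0.11, adjusted p = 1.63e-06, 3.23-fold). NOD Treg lay close to the Tconv of both strains, with means of 7.89 ± 0.11 (SD, n = 3) in B6g7 Tconv and 7.67 ± 0.11 in NOD Tconv. One other probe set of P2rx7 was at -0.85 (adjusted p = 0.0696) and the third at 0.11. Entpd1, which encodes the ATP-splitting enzyme CD39, gave 0.46 ± 0.12 (adjusted p = 0.0605, and 0.0489 with the block), and Nt5e, the CD73 gene that completes the step to adenosine, gave -0.03. Tgfb1 (-0.05), Il10 (-0.12) and Gzmb (-0.07) were not called.

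Of 29 costimulation and inhibitory receptor genes, 2 were higher, Cd86 (0.65 ± 0.12, adjusted p = 0.00687) and Pdcd1, the PD-1 gene (0.43 ± 0.10, adjusted p = 0.0342), and the median was 0.01. With the block 4 were called, Slamf6 (0.66) and Cd200 (0.39) added. The other probe set of Cd86 was at -0.02, and Pdcd1 kept its call in 4 of the 12 fits that left out 1 array (adjusted p = 0.15 without NOD Treg replicate 2). Of 28 TNF receptor superfamily genes and ligands, Tnfrsf1b, the TNFR2 gene, was higher by 1 of 2 probe sets (0.83 ± 0.14, adjusted p = 0.00482, 1.78-fold), and the other was at 0.05 (adjusted p = 0.97). These shares, 6.9% and 3.57%, stand beside 3.33% of all genes. Tnfrsf18 (-0.01), Tnfrsf4 (-0.09) and Tnfrsf9 (-0.22) were not called.

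Of 30 chemokine receptor and adhesion genes, 1 was higher and 1 lower (6.67% against 3.33% of all genes), and the median was -0.01. Cxcr4, the receptor for the stromal chemokine CXCL12, measured 7.07, 6.19 and 6.28 in B6g7 Treg and 9.33, 8.98 and 8.82 in NOD Treg (2.53 ± 0.28, adjusted p = 0.000165, 5.78-fold). It was higher in NOD Tconv too (3.06 ± 0.28, adjusted p = 3.36e-05). Itgb3, an integrin beta chain gene, measured 10.81, 10.16 and 9.94 against 8.25, 7.70 and 7.88 (-2.36 ± 0.20, adjusted p = 1.7e-05, 5.14-fold), with its other probe set at -0.07. With the block 5 were called, adding Itgb1 (1.08), Itgae (0.42) and Cd44 (-0.56), which were not called without it (adjusted p of 0.266, 0.0789 and 0.618).

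In T cell receptor signalling, 2 of 33 genes were called (6.06% against 3.33% of all genes), both lower, and both encode the suppressors of T cell receptor signalling known as STS proteins. Ubash3a measured 9.22, 9.11 and 9.06 in B6g7 Treg and 6.30, 6.81 and 7.08 in NOD Treg (-2.40 ± 0.17, adjusted p = 3.28e-06, 5.28-fold), and its other probe set stood at 0.06 (adjusted p = 0.953). Ubash3b gave -0.95 ± 0.12 (adjusted p = 0.000586), called by 1 of 3 probe sets. The median of the list was -0.01. Cd4 (0.18 ± 0.13), Zap70 (0.28), Lat (-0.29), Lcp2 (0.44) and Ptpn22 (-0.14) did not pass. Of 28 immediate early genes 1 was called (3.57% against 3.33% of all genes). It was Cd69 (0.75 ± 0.15, adjusted p = 0.0153), an early activation marker against which the cells had been sorted. It lost the call in 2 of the 12 fits without 1 array (adjusted p = 0.066 without B6g7 Treg replicate 2). With the block 4 were called, all higher, the added ones being Jun (0.58), Rgs2 (0.49) and Junb (0.43).

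Of 24 factors of helper and effector lineages, 4 were higher and 2 lower (25% against 3.33% of all genes), with a median of 0.10. Hopx, a small homeodomain protein that works as a cofactor, measured 10.74, 10.88 and 10.90 in B6g7 Treg and 7.96, 7.71 and 7.94 in NOD Treg (-2.97 ± 0.12, adjusted p = 1.5e-08, 7.84-fold). Its second probe set was lower too (-1.04). Id2, an inhibitor of E protein transcription factors, measured 7.66, 7.19 and 7.11 against 9.05, 8.90 and 8.75 (1.58 ± 0.15, adjusted p = 4.31e-05, 2.99-fold), though its other 2 probe sets were at -0.39 and -0.14 and not called. Runx1, a partner of Foxp3 at many Treg genes, was lower by 2 of its 6 probe sets (-0.99 ± 0.12, adjusted p = 0.000334), and the other 4 ran from -0.40 to 0.20. Maf was higher by 2 of 6 (1.44 ± 0.29, adjusted p = 0.013).

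Eomes (0.93 ± 0.20, adjusted p = 0.0212) and Runx3 (0.54 ± 0.13, adjusted p = 0.044), which act in cytotoxic T cells, completed the called lineage factors, each by 1 of 2 probe sets, with the other at 0.36 (adjusted p = 0.0577) and 0.015 (adjusted p = 0.992). Of the 12 fits that left out 1 array, Eomes was called in 8, Maf in 8 and Runx3 in 2; without NOD Treg replicate 3 the adjusted p of Eomes and Runx3 was 0.11 and 0.17, and without NOD Treg replicate 2 that of Maf was 0.07. With the 6 Treg arrays alone 3 members of this list were called, and with the block 7, Rora added (0.51). The factors Gata3 (-0.19), Tbx21 (0.28), Irf4 (0.07) and Prdm1 (-0.19) did not pass. Of the wider lists of 6 CD8 and 11 NK cell genes, Eomes and Nkg7 were called in the first and Nkg7 in the second (33.3% and 9.09%, against 3.33% of all genes). Nkg7, a cytotoxic granule gene, was higher by 0.65 ± 0.15 (adjusted p = 0.033, and 0.14 without B6g7 Treg replicate 2), while the mean of Cd8a and Cd8b1 ran from 6.70 to 6.79 in B6g7 Treg and from 6.44 to 6.45 in NOD Treg. The NK markers Ncr1, Klrd1, Gzmb and Prf1 together ran from 6.24 to 6.52 and from 6.27 to 6.44, and 0 of these 6 defining markers were called (2, Cd8a and Cd8b1, at an unadjusted p under 0.05).

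The densest list was that of the Ifi200 genes, whose products sense DNA, and the Trim genes of the Trim5 cluster, whose products act against retroviruses. Of 15 measured members, 3 were higher and 5 lower in NOD Treg (53.3% against 3.33% of all genes). Arrays of the strains did not overlap in 11 of the 15, against 14% of all genes. The median was -0.37. Trim12c measured 9.50, 9.16 and 8.76 in B6g7 Treg and 3.60, 3.45 and 3.54 in NOD Treg (-5.61 ± 0.17, adjusted p = 3.78e-09, dim in NOD), and its other probe set was lower by a smaller margin (-0.59, adjusted p = 0.00532). Trim12a (-4.08 ± 0.21, dim in NOD) and Trim30a (-2.93 ± 0.11, 7.64-fold) were lower by 1 of 2 probe sets, with the other at -0.10 and -0.40.

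Ifi213 measured 11.37, 11.24 and 11.07 against 7.37, 6.83 and 7.21 (-4.09 ± 0.16, adjusted p = 1.23e-08, 17-fold), and its second probe set was lower as well (-1.85). Ifi209 was lower by both probe sets (-2.73 ± 0.15 and -0.58). In the other direction, Ifi204 rose from a dim 3.18, 2.99 and 3.33 to 5.02, 6.00 and 5.91 (2.48 ± 0.24, adjusted p = 5.03e-05), and Trim5 (0.57 ± 0.09) and Mndal (0.43 ± 0.09) by less. Members of 1 gene family therefore differed in opposite directions between the strains. Members of such families share sequence, and how their probes divide signal between them was not tested.

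Of 44 measured genes in a list of the interferon response, which holds neither these clusters nor Ly6e, 2 were called (4.55% against 3.33% of all genes). Rsad2, the antiviral viperin gene, was lower (-1.43 ± 0.29, adjusted p = 0.017, 2 of 3 probe sets). Iigp1, an interferon-induced GTPase gene, was higher by both of its probe sets (1.07 ± 0.23, adjusted p = 0.0193). The median was -0.16, and 13 of the 44 had values above 0. Each call was lost in 4 of 12 leave-one-out fits, with a highest adjusted p of 0.087 for Rsad2 (without NOD Treg replicate 2) and 0.1 for Iigp1 (without NOD Treg replicate 3). With the block 4 were called, Usp18 (-1.001) and Oasl2 (-0.98) added.

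Death and survival genes also held several calls, 4 higher and 3 lower of 32 (21.9% against 3.33%), with a median of 0.03. Bcl2l15, a relative of BCL2, measured 5.03, 5.22 and 5.01 in B6g7 Treg and 6.92, 6.78 and 7.20 in NOD Treg (1.88 ± 0.12, adjusted p = 1.27e-06, dim in B6g7). Pmaip1, which encodes the death-promoting protein NOXA, was higher by 1.36 ± 0.25 (adjusted p = 0.00689, 2.57-fold). The inflammatory caspase genes Casp1 (0.85 ± 0.14, adjusted p = 0.00396) and Casp4 (0.66 ± 0.16, adjusted p = 0.0373) were higher, and Casp8, the initiator caspase of death receptors, was lower (-0.46 ± 0.10, adjusted p = 0.0236). Bmf, another death-promoting BCL2 relative, was lower by 1 of 3 probe sets (-0.75 ± 0.15, adjusted p = 0.0129), and Naip5, a sensor of bacterial flagellin, by its 1 probe set (-1.67 ± 0.27, adjusted p = 0.00329, 3.17-fold). Without 1 array at a time, Bmf and Casp8 lost the call in 4 and 5 of 12 fits (highest adjusted p of 0.061 without B6g7 Treg replicate 3 and 0.1 without NOD Treg replicate 2).

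Of 34 glutathione and detoxification genes, 2 were lower and 0 higher (5.88% against 3.33% of all genes), with a median of -0.08, and Gstt2 (-0.39) was called as well with the block. Gsta4, a glutathione transferase that clears products of lipid peroxidation, measured 9.33, 9.60 and 9.55 in B6g7 Treg and 6.42, 6.26 and 6.48 in NOD Treg (-3.11 ± 0.10, adjusted p = 3.78e-09, 8.61-fold). Gsto1, another transferase, was lower by both of its probe sets (-1.11 ± 0.17, adjusted p = 0.00245, and -1.07). Of 39 cell cycle genes 1 was called (2.56% against 3.33% of all genes). Ccnd3, a G1 cyclin gene, was called higher (0.95 ± 0.14), but its probe sets disagree as set out further on. With the block Rrm1 (0.51) and Cdc20 (0.60) were called as well. Of 15 quiescence and naive T cell genes limma called 0 (3 at an unadjusted p under 0.05), and 1 with the block, Slfn2 (-0.63). Of 35 cytosolic ribosomal protein genes 3 were lower (8.57% against 3.33% of all genes), and the median was -0.16. They were Rps9 (-2.20 ± 0.18), Rplp0 (-0.61 ± 0.12) and Rps19 (-0.40 ± 0.09). With the block Rpl19 (-0.43) was called too, and the other probe sets of Rps9 were at 0.03 and -0.16. With the 6 Treg arrays alone, and without the arrays numbered replicate 1, 1 of the 35 was called.

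Genes within or near diabetes susceptibility (Idd) regions were called at 9.52% (4 of 42) against 3.33% of all genes, with a median of -0.01. Ubash3a and Casp8 were lower, and Pdcd1 and Clec16a, an autophagy gene, higher (Clec16a 0.55 ± 0.12, adjusted p = 0.0276, with its other probe set at -0.25, and 0.14 without NOD Treg replicate 3). With the 6 Treg arrays alone 1 of the 42 was called. Ctla4, Il2, Il21, Il7r, Icos, Ptpn22 (-0.14), Ptpn2 (0.13) and B2m (-0.04) were not called by their main probe sets. Slamf6, a SLAM family receptor gene, gave 0.66 ± 0.17 (adjusted p = 0.0595) and was called with the block, the fifth of the list.

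No gene of the H2 region, which both strains share, passed. From H2-Ke6 to H2-M3 limma called 0 of 121 genes, and 7 (5.79%) had an unadjusted p under 0.05. On the rest of the same chromosome 23 of 713 genes were called (3.23%), with 10.7% at an unadjusted p under 0.05. In the H2 region 9.09% of genes had arrays that did not overlap, against 14% of all genes. The median size of the difference, regardless of sign, was 0.09 both there and on the rest of the chromosome. H2-Ab1, a chain of the class II molecule itself, measured 6.39, 6.62 and 6.82 in B6g7 Treg and 6.58, 6.70 and 6.58 in NOD Treg (0.01 ± 0.11). Of 201 probe sets of these genes 1 was called, a dimmer one of H2-Aa (0.88, adjusted p = 0.0457), and the main probe set of H2-Aa gave 0.71 (adjusted p = 0.185, and 0.0225 with the block). H2-Q2, a class I gene, was called with the block as well (0.77, adjusted p = 0.0221). Of 11 MHC class II genes 0 were called without the block (1 at an unadjusted p under 0.05). Of 20 class I and peptide loading genes 1 was lower (5% against 3.33% of all genes). It was Pdia3, a chaperone of that pathway (-0.40 ± 0.09, adjusted p = 0.0353, with its other probe set at -0.66 and adjusted p = 0.712). With the block 3 of the list were called, Nlrc5 (-0.54) among them.

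The same contrast in Tconv shares no array with that in Treg. Both contrasts use the same estimate of the spread per probe set, so their calls are not independent. In Tconv 554 genes were called (3.05%), and 340 genes were called in both populations in the same direction, 56.1% of the genes called in Treg and 61.4% of those called in Tconv. None was called in opposite directions. Of the 606 genes called in Treg, 583 had the same sign in Tconv. Over all 18193 genes, which are not independent replicates, the differences correlated with Pearson's r = 0.67 and Spearman's rho = 0.20. Slc15a2 (-5.27 in Tconv), Rab6b (-4.52), Zfp979 (6.20) and Rnf157 (3.26) illustrate differences of like size in both populations.

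**Figure D3:**
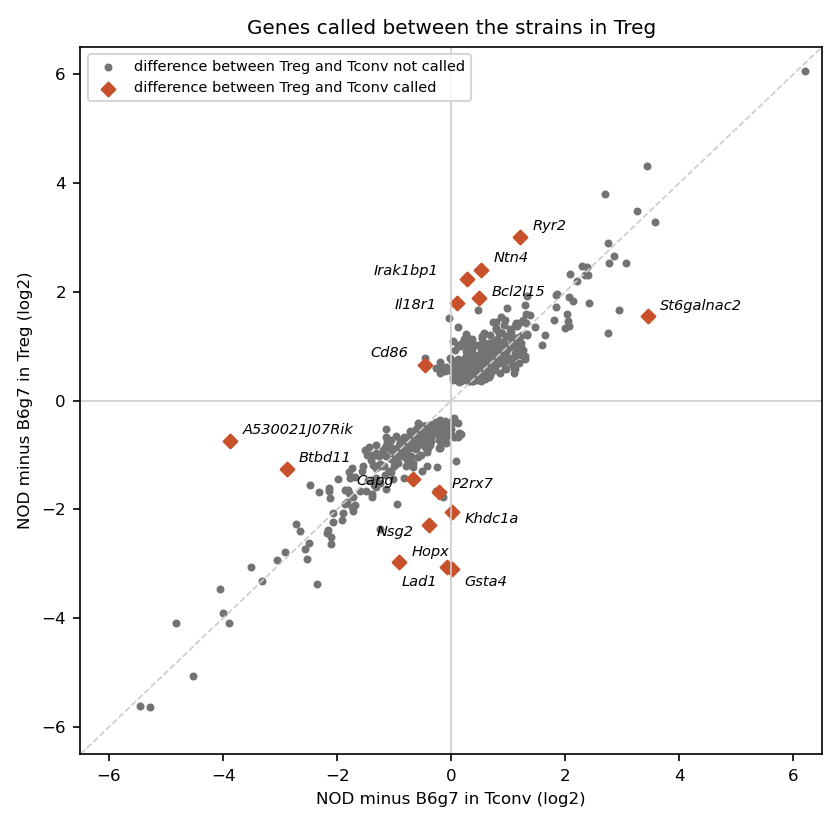
NOD minus B6g7 difference (log2) in Tconv (horizontal axis) and in Treg (vertical axis) of the 606 genes called in Treg. Diamonds mark the 16 of them whose differences in both populations differed by the direct test and the dashed line marks equality; most points follow that line, while Gsta4, Lad1, Hopx and Il18r1 lie away from it.

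A direct test of the strain difference in Treg against that in Tconv called 20 genes (0.11%), 16 of which were called in Treg. Of those 16, 10 were called in Treg and not in Tconv. With the block 89 probe sets passed this test in place of 42. Lower in NOD Treg were Gsta4 (0.01 ± 0.10 in Tconv), Lad1, Hopx, Nsg2, Khdc1a (dim in NOD), P2rx7 and Capg, and higher were Il18r1, Ntn4, Ryr2, Irak1bp1, Bcl2l15 and Cd86. Lad1, which encodes the anchoring filament protein ladinin, measured 8.75, 9.81 and 10.18 in B6g7 Treg and 6.58, 6.35 and 6.61 in NOD Treg (-3.07 ± 0.27, adjusted p = 1.82e-05, 8.39-fold), with Tconv means of 6.65 ± 0.17 (SD, n = 3) and 6.58 ± 0.13. Its B6g7 Treg arrays spread by more than a log2 unit, and all lay above the NOD arrays.

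Nsg2, a gene of vesicle trafficking in neurons, measured 11.03, 10.82 and 11.05 in B6g7 Treg and 8.69, 8.50 and 8.84 in NOD Treg (-2.29 ± 0.10, adjusted p = 5.12e-08, 4.89-fold). In Tconv this probe set gave -0.39 ± 0.10 (adjusted p = 0.0743). Its second probe set was lower in NOD in both populations, by -2.75 in Treg and -1.76 in Tconv, and did not pass the direct test (adjusted p = 0.962). The second probe set of Hopx, at -1.04 in Treg and -0.14 in Tconv, did not pass it either (adjusted p = 0.765). Nor did that of P2rx7 at -0.85 and 0.97 (adjusted p = 0.0837). For Capg the other probe set, at 0.12 and -0.89, pointed the other way and did not pass (adjusted p = 0.962). That of Cd86, at -0.02 and -0.09, did not pass (adjusted p = 0.98). Those of Ntn4, Ryr2, Irak1bp1 and St6galnac2 did not pass (smallest adjusted p = 0.962). The second probe set of A530021J07Rik passed (adjusted p = 6.12e-05). For Btbd11 another probe set passed (adjusted p = 0.0461) and the third did not (adjusted p = 0.146). Ryr2, a calcium release channel gene, measured 6.03, 5.99 and 6.10 in B6g7 Treg and 9.05 ± 0.05 (SD, n = 3) in NOD Treg (3.01 ± 0.10, adjusted p = 3.78e-09, 8.07-fold), against 1.21 ± 0.10 in Tconv, with its other probe set at 0.28. Irak1bp1, a partner of the kinase IRAK1, rose from a dim 4.16, 4.15 and 4.03 to 6.30, 6.46 and 6.26 (2.23 ± 0.09), with its other probe set at 0.32. St6galnac2, a sialyltransferase gene, was higher in NOD in both populations, by 1.55 ± 0.11 in Treg and 3.44 ± 0.11 in Tconv (its other probe set at 0.25 and -0.08), and Btbd11 lower in both, by -1.25 ± 0.16 and -2.89 ± 0.16.

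Calls of this direct test varied in their dependence on arrays. By their main probe sets, 12 of the 20 genes passed in every refit that held them and 8 lost the call in at least 1. The percentile filter left out A530021J07Rik, Irak1bp1 and Khdc1a, so they were not tested there. Other probe sets were not part of these refits. Among the 12, other probe sets of Hopx, Nsg2, Ntn4, Ryr2, Irak1bp1, St6galnac2 and Tmie did not pass the direct test, while that of A530021J07Rik did. Without the 4 arrays numbered replicate 1, P2rx7 (adjusted p = 0.0622), Bcl2l15 (adjusted p = 0.144), Cd86 (adjusted p = 0.144), Capg (adjusted p = 0.462), Btbd11, Afp, Drosha and Ppm1l did not pass. Without NOD Treg replicate 3, 27 probe sets passed in place of 42. In pooled cells, fewer cells that express a gene and less of its RNA per cell cannot be told apart.

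**Figure D4:**
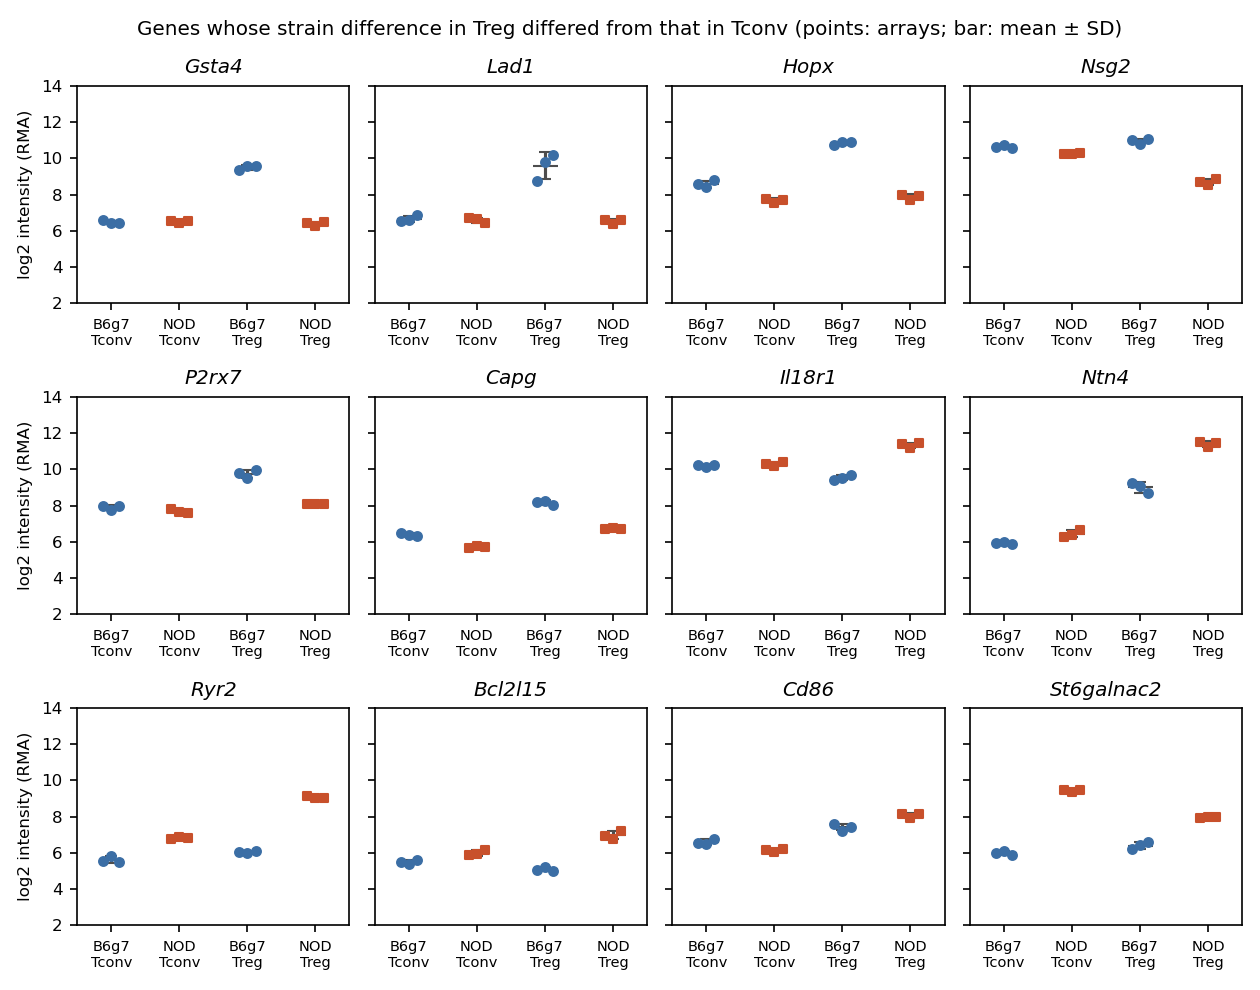
Log2 intensity (vertical axis) of 12 genes in the 4 groups, 3 arrays each (points), with mean and SD. Gsta4, Lad1, Hopx and P2rx7 are highest in B6g7 Treg, whereas Ntn4 and Il18r1 are highest in NOD Treg.

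Promoter windows of 3 genes with such a Treg difference are shown as examples, 1 for each kind of motif content found, chosen after the motif counts were seen. In all 3 genes the strains were called apart in Treg, not in Tconv, and by the direct test. They run from 250 bases before to 50 bases after a RefSeq start on GRCm38.p6, the C57BL/6J reference; no NOD sequence was used. Capitals mark matches, on either strand, to the letters GTAAACA (forkhead, the family of Foxp3), TGTGGT (RUNX) or TTCNNNGAA (STAT). The third of 3 listed starts of Il18r1 lies at chr1:40465756-40466055 on the plus strand and holds 2 STAT matches; the other 2 starts hold 1 RUNX match between them. The window of Bcl2l15, chr3:103832446-103832745 on the plus strand, holds 1 RUNX match, and that of Lad1, chr1:135818348-135818647 on the plus strand, holds none of the 3.
Il18r1: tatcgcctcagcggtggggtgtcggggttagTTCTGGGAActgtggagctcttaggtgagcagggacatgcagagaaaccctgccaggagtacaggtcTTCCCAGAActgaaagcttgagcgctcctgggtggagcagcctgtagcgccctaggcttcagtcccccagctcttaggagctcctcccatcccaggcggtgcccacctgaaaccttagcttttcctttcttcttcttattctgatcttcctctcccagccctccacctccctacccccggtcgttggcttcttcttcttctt
Bcl2l15: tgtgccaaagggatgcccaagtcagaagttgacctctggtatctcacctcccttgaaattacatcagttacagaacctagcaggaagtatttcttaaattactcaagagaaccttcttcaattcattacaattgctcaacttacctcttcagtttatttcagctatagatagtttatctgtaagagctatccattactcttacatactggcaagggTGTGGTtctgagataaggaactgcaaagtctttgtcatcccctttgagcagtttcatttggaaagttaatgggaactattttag
Lad1: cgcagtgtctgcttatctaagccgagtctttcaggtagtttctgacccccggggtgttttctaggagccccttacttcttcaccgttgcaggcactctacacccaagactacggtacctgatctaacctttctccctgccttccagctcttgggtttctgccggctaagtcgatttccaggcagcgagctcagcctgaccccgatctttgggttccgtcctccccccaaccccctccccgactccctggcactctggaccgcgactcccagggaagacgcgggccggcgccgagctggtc
Of 32851 windows of this length in the RefSeq table, 3.65% hold the forkhead letters, 16.8% the RUNX letters and 8.30% the STAT letters. The 18 windows of the 12 genes that had an entry and were called both in Treg and by the direct test held no forkhead match. Among the genes not shown, the 2 windows of Nsg2 overlap, and the same single STAT match lies in both. For Btbd11, 1 of 2 windows holds a RUNX match. A match is a run of letters and not a measured site, and the absence of one says nothing of Foxp3 binding.

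How far the probe sets of a gene agreed was counted over the 9010 genes with at least 2. Of these, 688 had at least 1 called in Treg, and in 534 of the 688 (77.6%) exactly 1 probe set was called. The 1117 other probe sets of those 534 genes had the sign of the called one in 701 cases (62.8%). In 128 genes at least 2 probe sets were called, all in 1 direction, and in 45 every probe set was. Among those 45 were Hopx, Nsg2, Ly6e, Ifi213, Ifi209, Trim12c, Gsto1, Iigp1, Eps8l1, Rab6b and Pdk1, as well as Mff, a mitochondrial fission factor gene lower by all 4 of its probe sets (from -0.72 to -0.90), and Dnmt3b, a DNA methyltransferase gene lower by both (-0.85 and -0.74). Of 106 called genes named by rule, 67 had other probe sets, and 29 of these had another called in the same direction. Some of these genes were named because more than 2 probe sets, all called in 1 direction, read them. Others were named because their probe sets were called in opposite directions. The 29 of 67 is therefore no measure of how probe sets agree over genes.

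**Figure D5:**
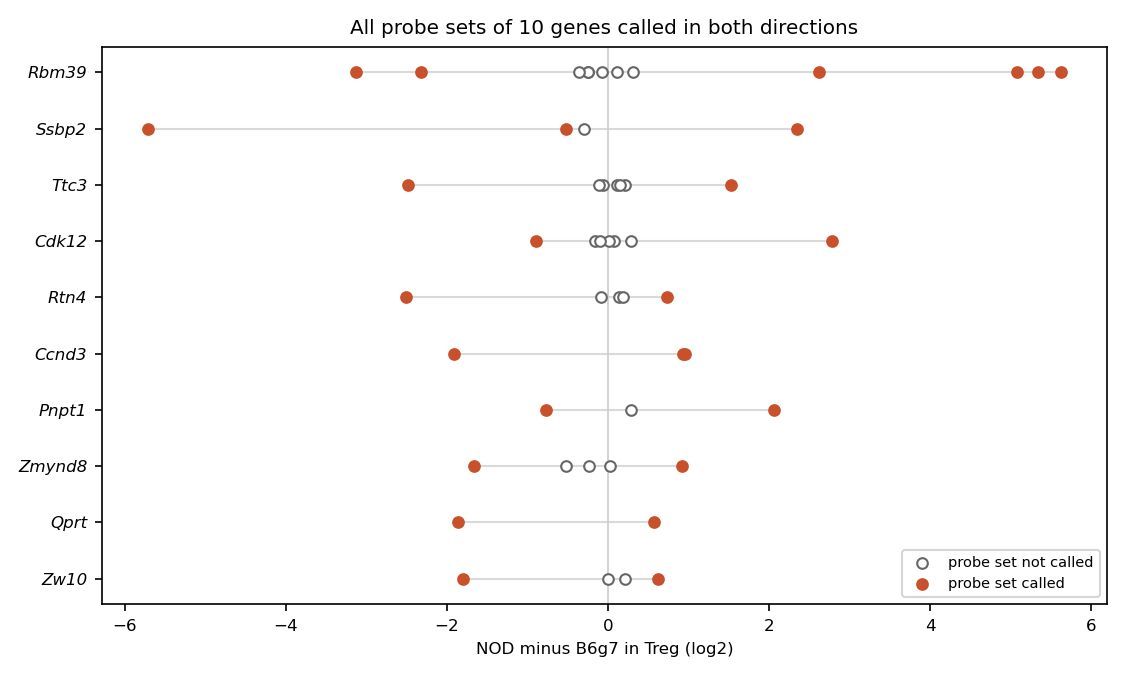
NOD minus B6g7 difference in Treg (log2, horizontal axis) of every probe set of the 10 genes with the widest gap between probe sets called in opposite directions. Filled points are called and open points are not; Rbm39 spans from -3.13 to 5.63.

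In 26 genes probe sets were called in opposite directions, 44 with the block, 13 with the 6 Treg arrays alone, and 17 without NOD Treg replicate 2 or replicate 3. Rbm39, a splicing factor gene, had 12 probe sets, 4 called higher and 2 called lower. One of the higher measured 8.69, 6.51 and 6.14 in B6g7 Treg and 13.23, 12.50 and 12.50 in NOD Treg (5.63), and one of the lower measured 10.57, 10.22 and 9.95 against 7.61, 7.11 and 6.64 (-3.13). The brightest probe set was at 0.11 ± 0.35 and not called. The same probe sets gave 5.90 and -3.27 in Tconv, so the split was alike in both populations. Ssbp2, a single-stranded DNA binding protein gene, ranged from -5.72 to 2.35 over 4 probe sets, with its brightest at -0.52 ± 0.12 (adjusted p = 0.0306, and 0.13 without NOD Treg replicate 1). Ttc3, a ubiquitin ligase gene (-2.48 to 1.53), Cdk12, a kinase of transcription (-0.89 to 2.78), Rtn4, the Nogo gene (-2.51 to 0.73), and Ccnd3 (-1.91 to 0.95) had gaps of 2.87 or more. For such genes the arrays give no single direction.

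No defining marker of another cell type was called between the strains. The mean of 7 B cell markers ran from 6.52 to 6.73 in B6g7 Treg and from 6.63 to 6.67 in NOD Treg, that of 5 monocyte and macrophage markers from 6.42 to 6.66 and from 6.41 to 6.66, and that of 4 dendritic cell markers from 6.96 to 7.05 and from 6.87 to 6.96; only the last did not overlap. Of the defining markers of these 3 types limma called 0 between the strains, and 0 had an unadjusted p under 0.05. The wider list of 19 B cell genes had 15.8% called, against 3.33% of all genes. In it Cd72 (-1.42 ± 0.17, adjusted p = 0.000253) and Bank1 (-1.03 ± 0.18, adjusted p = 0.00478) were lower and Pou2af1 (1.14 ± 0.12, dim in B6g7) higher, while Cd79a (-0.09), Cd79b (0.14), Ms4a1 (-0.05) and Cd22 (0.01) were not called. Cst3, the 1 called of 11 dendritic cell genes (9.09%), was higher by 0.60 ± 0.15 (adjusted p = 0.0454, and 0.17 without NOD Treg replicate 1). Limma called 0 genes, and 0 at an unadjusted p under 0.05, in the lists of 7 plasma cell, 19 monocyte and macrophage, 12 neutrophil, 11 erythroid and platelet and 12 stromal and endothelial genes. Of 19 genes that Treg hold at lower levels than Tconv, Id2 was called (5.26% of the list), and with the block Actn1 as well (-0.38). The part of other cells in these results was not tested.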

How the data were processed

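RNA of 12 arrays was read. By the series' design text the authors normalized with RMA, which the submitters' processing notes name too, and they deposited 1 linear intensity per probe set and array; the RMA version is not given in the sources used here. Here log2 was taken of the deposited intensities, 64 control probe sets were left out, and limma 3.58.1 in R 4.3.3 (a mean per group, eBayes) was fitted to 45037 probe sets over all 12 arrays, so that the 4 groups share 1 estimate of the spread. P-values were adjusted by Benjamini-Hochberg over all probe sets. The fit was tested on simulated data. In the platform annotation 34945 probe sets name 1 gene, 932 name several and 9160 are unnamed here. Of 18193 genes, 18028 matched the GRCm38.p6 RefSeq table, used for gene order and promoters.

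Named are the 20 largest rises and 20 largest falls whose arrays do not overlap and whose higher mean reaches the median probe set mean. Up to 6 called members of each of 33 lists were named as well, with 13 fixed genes. So were the 10 widest opposite gaps and the 10 smallest p of the direct test. Further rules added every gene with probe sets called in opposite directions and every gene called by the direct test. Genes with 3 or more probe sets, all called in 1 direction, were added too. Counts over named genes include all of these. Names beyond these were chosen after their values were seen. The gene lists and the comparison were chosen with earlier results of these data known. The labels number replicates 1 to 3. Deviations of same-numbered NOD and B6g7 Treg arrays correlated with r = 0.67, 0.34 and 0.30, all above the 0.1 of the rule used for pairing. Other pairs ran from -0.48 to 0.31. NOD replicate 2 with B6g7 replicate 3 gave 0.31 and NOD replicate 3 with B6g7 replicate 2 gave 0.21. Replicate 1 therefore stands apart, and these values do not show that the arrays numbered 2 and 3 are paired. Same-numbered Tconv arrays gave 0.44, -0.04 and 0.20, which is no pairing by that rule. The block was nevertheless fitted over all 12 arrays, Tconv included. The block is given where it changes a list's calls. Alternatives changed the samples, block, filter, normalization, array weights, variance prior, a control covariate and the probe set of a gene.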

Additional observations from a re-analysis of the deposited data

Results flagged for a closer look

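The strain difference in Treg differed from that in Tconv, by the direct test of 1 contrast against the other, in 20 genes; each value is the log2 difference in Treg minus that in Tconv. It was negative for Gsta4 (-3.12), Lad1 (-3.003), Khdc1a (-2.07), Hopx (-2.05), Nsg2 (-1.90), St6galnac2 (-1.89), P2rx7 (-1.47), Ppm1l (-0.87) and Capg (-0.77). It was positive for A530021J07Rik (3.15), Tmie (2.02), Irak1bp1 (1.95), Ntn4 (1.87), Ryr2 (1.80), Il18r1 (1.70), Btbd11 (1.63), Bcl2l15 (1.39), Afp (1.24), Cd86 (1.11) and Drosha (0.96). By their main probe sets, Tmie, Drosha, Ppm1l and Afp were called apart between the strains in Tconv and not in Treg. Of the other 4 probe sets of Afp, 2 were lower in NOD Treg (-3.10 and -1.93) and in NOD Tconv (-5.31 and -3.65), and both passed the direct test (adjusted p = 0.0187 and 0.0128). Tmie, a gene of hair cell channels, was lower in NOD Tconv (-2.25 ± 0.15) with -0.23 ± 0.15 in Treg, and Drosha, which processes microRNAs, was lower in NOD Tconv (-0.84 ± 0.10) with 0.12 ± 0.10 in Treg. In Tconv the other probe sets of Tmie gave -0.50 and 0.10, and those of Drosha -0.05 and -0.63. No other probe set of Tmie, Drosha or Ppm1l passed the direct test (smallest adjusted p = 0.519). A530021J07Rik was dim in both groups of Treg.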

How the results depend on the processing

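The number of probe sets called between the strains in Treg lay between 1027 and 1505 in the fits without 1 array, and the main probe sets of the 606 genes kept their sign in all 21 refits compared. With the replicate block, which groups arrays by replicate number, 2184 probe sets and 895 genes were called. Genes with opposite probe sets numbered 44, Tconv probe sets 2124 and direct-test probe sets 89, and none of the called named genes lost its call. With the 6 Treg arrays alone the Treg counts were 976 probe sets, 385 genes and 13 opposite genes. Array weights gave 2361, 960 and 49 in Treg, 2181 in Tconv and 79 in the direct test, and the actin covariate 2340, 941 and 50, 2077 and 71. A filter at the 25th percentile left 26 direct-test probe sets. Counting any probe set of a gene, as taking the one of smallest p also does, gave 942 genes. Leave-one-out fits gave 17 (without NOD Treg replicate 2 or 3) to 30 genes with opposite probe sets and 27 (without NOD Treg replicate 3) to 38 direct-test probe sets. Of 2768 further values of named genes, 2586 stayed called or stayed uncalled, 168 lost the call and 14 gained it. None with a called main value reversed its direction. Direction was not judged where the main value was not called. The probe set next in brightness reversed the sign of a called main value in 22 of 90 named genes: BC018473 (-0.083), Slc15a2 (0.10), Capg (0.12), Id2 (-0.39), Cd86 (-0.018), Ubash3a (0.063), Runx1 (0.15), Clec16a (-0.25), Rps9 (0.026), Ssbp2 (2.35), Pnpt1 (2.06), Qprt (0.57), Wars2 (-0.84), Arsk (-1.09), Tti2 (-0.76), Lancl1 (0.57), Ppm1h (-0.67), Ube2d3 (-0.30), Dpy19l3 (-0.43), Elmo1 (0.85), Atf7ip (0.58), Galnt6 (0.54). Sign changes from an uncalled main value are not among the 22. Examples are Cdk12 (0.29 to -0.89) and Zw10 (0.21 to -1.81). The cause was not tested. The 90 include every gene named because its probe sets were called in opposite directions, among them those from Ssbp2 to Galnt6 in this list. The 22 of 90 is therefore no rate over genes.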

Other observations

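Neighbours of called genes in the RefSeq gene order were called more frequently than other genes, though most were not called. Of 1164 placed genes next to a gene called in Treg, 97 were called (8.33%), against 3.00% of the other placed genes. The densest window of 15 genes ran from Carmil1 to Mrs2 and held 8 called genes. In it Gm11346 (-3.31), the nuclease gene Tdp2 (-1.95), Acot13 (-1.21), the magnesium channel gene Mrs2 (-1.14) and Gmnn, which encodes the replication inhibitor geminin (-1.09), were lower in NOD Treg, and Aldh5a1 (1.06), Gpld1 (1.03) and Cmah (0.48), which encodes an enzyme of sialic acid modification, were higher. From Itpka to Capn3 6 of 15 were called, 5 of them higher, led by Tmem87a (2.31). From Ms4a7 to Mrpl16 5 of 15 were called, all lower, among them the membrane protein genes Ms4a6d (-2.37), Ms4a4d (-0.91) and Ms4a4c (-0.88). The window that holds Ntn4 (2.39) also held Mir1931 (-3.91), Hal (1.60), Lta4h (-0.72) and Fgd6 (-0.57). These windows were picked for their counts and were given no test.

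Killer lectin-like receptor genes and their ligands had 2 called members of 19 (10.5% against 3.33% of all genes). Clec2d, which encodes a ligand of such receptors, measured 5.76, 5.67 and 5.88 in B6g7 Treg and 6.64, 7.37 and 6.94 in NOD Treg (1.21 ± 0.20, adjusted p = 0.00352, 2.32-fold), and Cd69, of the same gene region, was the other. With the replicate block 5 were called, the added ones being Klrb1f (0.63), Klrb1b (0.56) and Clec2i (-0.63). Of 8 sex-linked genes limma called 0, and 0 had an unadjusted p under 0.05. Xist measured 11.53, 11.39 and 11.60 in B6g7 Treg and 11.30, 11.35 and 11.37 in NOD Treg, and the difference was -0.16 ± 0.10.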
